A study of Mus musculus with 11 samples.

Results

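The pyruvate dehydrogenase complex and the enzymes that switch it on and off were followed as 10 genes, listed by name. They are the 4 pyruvate dehydrogenase kinases Pdk1, Pdk2, Pdk3 and Pdk4, the 2 pyruvate dehydrogenase phosphatases Pdp1 and Pdp2, and 4 structural subunits, Pdha1 and Pdhb (the alpha and beta chains of the E1 dehydrogenase), Dlat (the E2 acetyltransferase) and Pdhx (the E3-binding protein). All 10 were found among the 38393 genes of the files, and all 10 passed the expression filter. RNA came from whole eyes of C57BL/6 mice (the line was kept on C57Bl/6J, per the study's methods), 1 to 2 months old, from which lens and cornea had been taken away. It was read in 11 libraries, 5 from miR-211+/+ (WT) mice and 6 from miR-211−/− (KO) mice, a line with a constitutive deletion of the miR-211 precursor. The WT mice were 2 males and 3 females and the KO mice were all males, so that sex and genotype cannot be fully told apart. Sex was not given for each library. The study's own column names give an age of 1 month for WT replicates 3 and 4 and KO replicates 4 and 5, and of 2 months for WT replicate 5 and KO replicate 6, and none for the other 5 libraries.

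The complex sits in the mitochondrial matrix, where it turns pyruvate from glycolysis into acetyl-CoA and so feeds the citric acid cycle. The kinases phosphorylate the E1 alpha chain and stop the complex, while the phosphatases remove the phosphate and start it again. The kinase isoforms differ in tissue and stimulus. Pdk4 is abundant in heart and skeletal muscle, and is raised by fasting, fatty acids and glucocorticoids, Pdk1 is raised by hypoxia, and Pdk2 is the most widely expressed. Retina is a tissue with high aerobic glycolysis, and photoreceptors make much of their pyruvate into lactate.

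The libraries held 20282241 to 36317673 read pairs assigned to genes, and values are given as CPM (counts scaled to a common library total) on TMM-scaled library sizes unless FPKM, which also divides by gene length, is named. Rod RNA was abundant in all libraries, with 25104 to 39878 CPM summed over a list of rod markers. Lens RNA was left in some of them, as crystallin genes took 13.1% of the counts of WT replicate 4, 3.03% of KO replicate 3, and at most 0.428% elsewhere. RNA of cornea or conjunctiva was left too, at uneven levels. Its markers Krt12 and Aldh3a1 ranged from 4.25 to 3505 CPM and from 173 to 1771 CPM over the libraries. The counts cannot show the deletion itself. Mir211 was at 0 counts in all 11 libraries, WT included, and its host gene Trpm1 was read at 330 to 494 CPM, WT and KO together. Column names used by the study fall into 2 kinds, here called the mouse-number series (WT replicates 1 and 2, KO replicates 1, 2 and 3) and the age series (WT replicates 3, 4 and 5, KO replicates 4, 5 and 6). What separates the 2 kinds is not given.

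The deleted microRNA and its close relative miR-204 are shown because their seeds, in capitals (bases 2 to 8), are the same. Both mature sequences were taken from RefSeq (GRCm38.p6, plus strand).
mmu-miR-211-5p (chr7:64205831-64205852): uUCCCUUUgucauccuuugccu
mmu-miR-204-5p (chr19:22750610-22750631): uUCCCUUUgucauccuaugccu
They differ at 1 base, U17A, counted from 1 at the 5′ end with the miR-211 base first. The 7-base match to this seed on the transcript strand, AAAGGGA, was found in the longest annotated 3′ UTR of 3 of the 10 genes, Pdk4, Pdp1 and Pdp2, against 16.6% of the 14511 3′ UTRs of all genes searched. Their sites follow with 10 bases on each side, the match in capitals.
Pdk4 (chr6:5484752-5484758, minus strand, last of 11 exons): gtcgagttcaAAAGGGAgataaaattg
Pdp1 (chr4:11959879-11959886, minus strand, last of 2 exons): aatgttaaatAAAGGGAAaatgtgtttt
Pdp2 (chr8:104598552-104598558, plus strand, last of 2 exons): agcaacattcAAAGGGAggctggttct
The Pdp1 match is the longer 8-base form, AAAGGGAA, which 7.13% of the 3′ UTRs held. The 3′ UTRs of Pdk4, Pdp1 and Pdp2 were 2098, 2389 and 3907 bases long, beside a median of 1210 for those searched. Length was not taken into account in these shares. Pdha1 held 1 match of another 7-base form, to bases 2 to 7 followed by an A, whose share over all genes was not counted. A match is a description of the letters and not a site of action.

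The first comparison asked whether the 10 genes differed between WT and KO eyes. Pdk4 was lower in KO eyes on average, with the largest difference of the 10, while the other kinases, both phosphatases and the subunits lay between −0.25 and 0.02 on the log2 scale. None of the 10 passed an adjusted p under 0.1 in the edgeR likelihood-ratio test, beside 0.00634% of the 15767 genes tested, which is 1 gene, Xist. Xist is an RNA of females, and the KO mice were all males. At an unadjusted p under 0.05, 1 of the 10 passed, Pdk4, beside 2.09% of all genes. The fold change was below 0 for 7 of the 10, beside 48.9% of all genes.

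**Figure D1:**
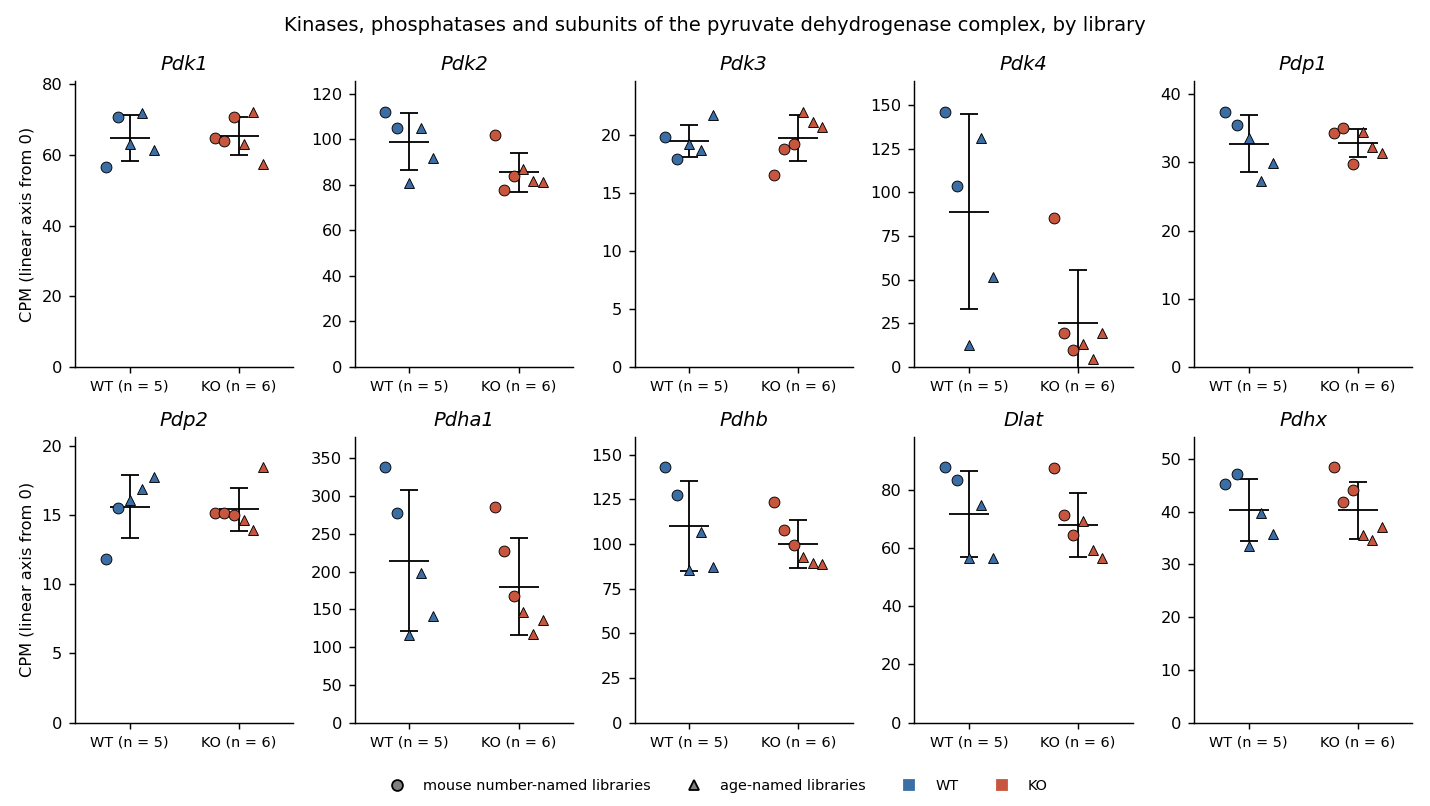
CPM of the 10 genes in every library (linear axes from 0) for WT (n = 5, blue) and KO (n = 6, red); circles are the mouse-number series and triangles the age series, long bars are means and whiskers 1 SD. Pdk4 spreads from 4.51 to 146 CPM, and 5 of the 6 KO libraries are at or below 19.7 CPM. Pdk1, Pdk2, Pdk3, Pdp1, Pdp2, Dlat and Pdhx differ by at most 1.56-fold between their lowest and highest library.

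Among the kinases, Pdk4 (ENSMUSG00000019577, chr6:5483351-5496309, minus strand, GRCm38) stood at 146, 104, 12.5, 131 and 51.6 CPM in WT replicates 1 to 5. In KO replicates 1 to 6 it stood at 85.5, 19.5, 9.99, 13.3, 4.51 and 19.7 CPM. The genotypes overlapped, since WT replicate 3 lay within the KO range and KO replicate 1 was higher than 2 of the WT libraries, and 2 of 6 KO libraries were below every WT library. All 6 KO libraries were below the WT median. The means were 89.0 ± 56.0 CPM in WT (SD, n = 5) and 25.4 ± 30.0 CPM in KO (SD, n = 6), which is 3.50-fold lower in KO. On the log2 scale the difference was −1.81 ± 0.70 (SE), and its unadjusted edgeR p = 0.0110 was the rank 73 of all genes, beside a two-sided exact permutation p = 0.0541 over the 11 libraries. The edgeR adjusted p was 1.00.

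One library decided the adjusted call. Without KO replicate 1, the difference of Pdk4 was −2.72 ± 0.56 and the edgeR adjusted p was 0.0142. Leaving out each of the other 10 libraries in turn gave −2.09 to −1.56. With the library series as a covariate the difference was −2.08 ± 0.63 (edgeR adjusted p = 0.312). Within the mouse-number series it was −1.71 ± 0.83, and within the age series −2.36 ± 0.81, with edgeR adjusted p = 0.999 and 0.509. The spread of Pdk4 among libraries of 1 genotype was itself large, with a pooled SD of 1.43 on the log2 scale that was above that of 99.0% of the genes tested.

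Pdk2 (ENSMUSG00000038967, chr11:95026258-95041354, minus strand), the kinase with the highest FPKM in all 11 libraries, stood at 112, 105, 80.8, 105 and 92.0 CPM in WT replicates 1 to 5. In KO replicates 1 to 6 it was 102, 77.7, 83.9, 87.0, 81.5 and 81.5 CPM. The groups overlapped, though all 6 KO libraries were below the WT median. The difference was −0.21 ± 0.12 (SE) on the log2 scale, with an unadjusted edgeR p = 0.0727 and an exact permutation p = 0.0671. The difference was larger than the pooled SD within genotypes, 0.16, though its 95% interval of −0.44 to 0.02 included 0. It was −0.22 ± 0.10 with the library series as a covariate, where the unadjusted p was 0.0347 and the edgeR adjusted p 0.713. An antisense gene that overlaps Pdk2, Gm11513, never held more than 2 counts.

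Pdk1 and Pdk3 gave nearly the same level in both genotypes. Pdk1 (chr2:71873224-71903858, plus strand) was 64.7 ± 6.53 CPM in WT and 65.4 ± 5.39 CPM in KO, a log2 difference of 0.01 with a 95% interval of −0.19 to 0.22. Pdk3 (chrX:93764607-93832201, minus strand) was 19.5 ± 1.42 CPM in WT and 19.7 ± 1.98 CPM in KO, a log2 difference of 0.02 with a 95% interval of −0.21 to 0.24. For both, the sign depended on which libraries were kept.

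**Figure D2:**
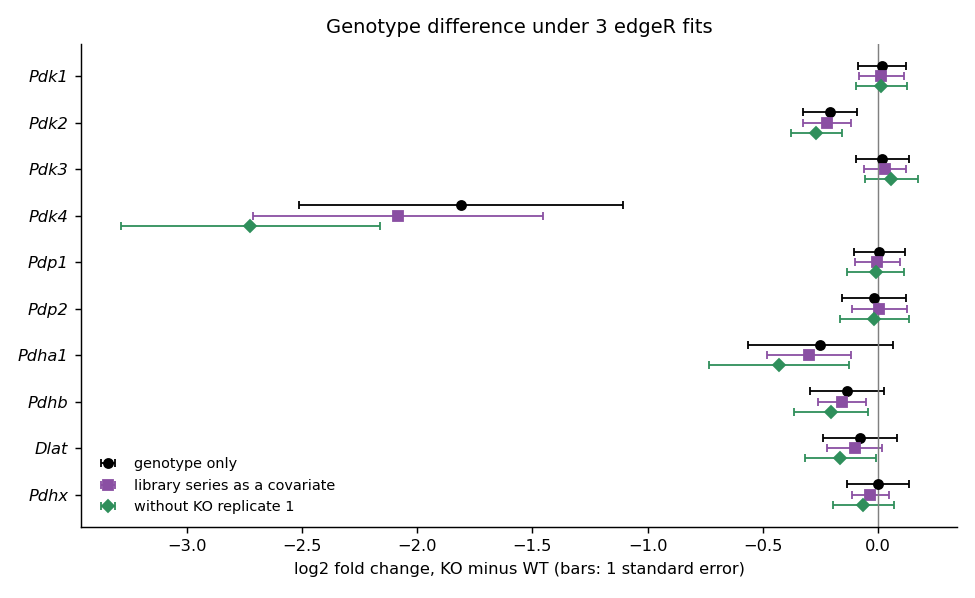
Log2 fold change, KO minus WT, of the 10 genes (points) with 1 standard error (bars) in 3 edgeR fits: genotype only (black), with the library series as a covariate (purple) and without KO replicate 1 (green). Pdk4 lies at −1.81, −2.08 and −2.72, and all other values lie between −0.43 and 0.06.

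Because the kinases act on one substrate, their make-up was compared per length, as FPKM. Pdk4 made up 36.4, 29.4, 5.55, 34.2 and 18.4% of the summed kinase FPKM in WT replicates 1 to 5. In KO replicates 1 to 6 the shares were 26.1, 8.65, 4.33, 5.62, 2.01 and 8.57%. Pdk4 was thus the second kinase in 4 WT libraries and KO replicate 1, and the lowest of the 4 in WT replicate 3 and the other KO libraries. The mean share was 24.8 ± 12.8% in WT and 9.21 ± 8.65% in KO, 15.6 percentage points lower (two-sided exact permutation p = 0.0455, 0.0682 after Benjamini-Hochberg adjustment over 3 such quantities). Without KO replicate 1 the adjusted p was 0.0476, and without WT replicate 3 it was 0.0214.

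The summed FPKM of the 4 kinases was 93.6 in WT and 72.7 in KO as means, and Pdk4 carried 84.0% of that difference and Pdk2 21.9%, while Pdk1 and Pdk3 were slightly higher in KO. Without Pdk4, the kinase sum was 63.7 to 74.6 FPKM in WT and 60.3 to 69.5 FPKM in KO, which overlap (log2 difference −0.07 ± 0.05, exact permutation p = 0.201). FPKM carries no TMM factor, which was 0.864 for the lens-rich WT replicate 4 and 0.984 to 1.05 elsewhere. The FPKM sums of WT replicate 4, which held the lowest WT value, are therefore low beside its CPM. Shares and ratios within a library do not depend on that factor. The ratio of kinase to phosphatase FPKM was 7.04, 6.10, 4.11, 8.11 and 5.36 in WT replicates 1 to 5. In KO replicates 1 to 6 it was 5.73, 4.01, 4.53, 4.26, 4.32 and 4.10. On the log2 scale it was lower in KO by 0.43 (exact permutation p = 0.0390, adjusted p = 0.0682). The ratio of kinase to E1 alpha FPKM did not differ beyond the spread (log2 difference −0.20, exact permutation p = 0.361, adjusted p = 0.361). Within the mouse-number series (2 WT and 3 KO) and the age series (3 and 3), the Pdk4 share was 19.9 and 14.0 percentage points lower in KO, but those designs cannot reach an exact p under 0.1, and gave p = 0.2 and p = 0.3.

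**Figure D3:**
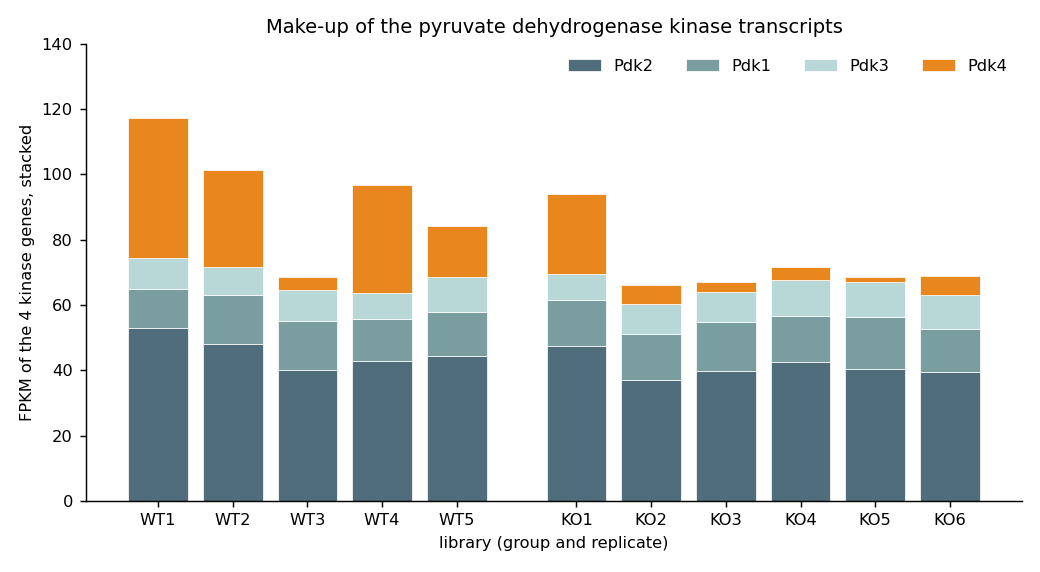
FPKM of Pdk2, Pdk1, Pdk3 and Pdk4, stacked from 0, in each of the 5 WT and 6 KO libraries. The 3 lower blocks together stay between 60.3 and 74.6 FPKM in all libraries, and the orange Pdk4 block ranges from 1.38 to 42.7 FPKM, highest in WT replicates 1, 4 and 2 and KO replicate 1.

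Neither phosphatase differed by more than its spread over libraries. Pdp1 (chr4:11958184-11966452, minus strand), the calcium-stimulated isoform, was 32.7 ± 4.15 CPM in WT and 32.9 ± 2.07 CPM in KO, with a log2 interval of −0.21 to 0.22. Pdp2 (chr8:104591451-104599026, plus strand), the isoform responsive to insulin, was 15.6 ± 2.29 CPM in WT and 15.4 ± 1.57 CPM in KO, with an interval of −0.29 to 0.25. These 2 genes and Pdk4 hold the seed match shown above, and their log2 differences were 0.00 for Pdp1 with the 8-base match, and −0.02 and −1.81 for Pdp2 and Pdk4 with the 7-base match. The signs for Pdp1 and Pdp2 changed with the libraries kept.

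The subunits were lower in KO on average by small amounts that lay within the spread. Pdha1 (chrX:160122209-160138413, minus strand), the chain that the kinases phosphorylate, stood at 338, 278, 115, 198 and 141 CPM in WT replicates 1 to 5. In KO replicates 1 to 6 it stood at 285, 227, 168, 146, 117 and 136 CPM. The libraries of both genotypes covered nearly the same range, and the log2 difference was −0.25 ± 0.31 (SE, edgeR adjusted p = 1.00). Pdhb (chr14:8165996-8173025, minus strand) was 110 ± 25.1 CPM in WT and 100.2 ± 13.4 CPM in KO, a log2 difference of −0.13 ± 0.16. The differences of Pdha1 and Pdhb rested largely on WT replicate 1, without which they were −0.026 and −0.021, while without KO replicate 1 they were −0.43 and −0.20. Dlat (chr9:50634633-50659780, minus strand), which carries the lipoyl arm, was 71.8 ± 14.7 and 68.1 ± 11.04 CPM, a difference of −0.08 ± 0.16. Pdhx (chr2:103021075-103073513, minus strand), which holds the E3 subunit in the core, was 40.3 ± 5.86 and 40.3 ± 5.47 CPM.

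RSEM gave Pdha1 a fractional count in all 11 libraries, so that some of its reads were shared with other loci, while 5 to 11 libraries held whole counts for the other 9 genes. Map3k15, which overlaps Pdha1 on the other strand, was at 1.56 to 2.80 CPM, and the preparation is not stated to keep strand. The testis isoform Pdha2 was at 0 counts in all 11 libraries.

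Per length, the E1 chains were read most and Pdp2 least, with the kinase Pdk2 above the subunits Dlat and Pdhx. The mean FPKM over the 11 libraries was 73.0 for Pdhb, 71.6 for Pdha1, 43.2 for Pdk2, 23.8 for Dlat, 16.6 for Pdhx, 15.4 for Pdk4, 14.0 for Pdk1, 11.4 for Pdp1, 9.59 for Pdk3 and 4.52 for Pdp2. Pdhb and Pdha1 did not differ beyond their spread, as Pdhb was higher in 7 of 11 libraries (exact sign-flip permutation test of log2 FPKM within libraries, p = 0.306). Pdk2 took the third place in all 11 libraries. Pdk4 ranged from place 4 to place 10, and did not differ from its neighbours in the order, Pdhx (p = 0.104, adjusted 0.133, exact permutation) and Pdk1 (p = 0.260, adjusted 0.292, exact permutation). The other 6 neighbours differed in the same exact test, with adjusted p of 0.00220 to 0.00732. The smallest p this test can give is 0.000977.

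The 4 subunits moved together across libraries. Over the 11 libraries, Pearson's r of log2 CPM was 0.841 to 0.978 between the subunits, as a description of libraries that share preparation and series. Pdk4 and Pdk2 went together (r = 0.901), and both went with the subunits (r = 0.607 to 0.779), whereas Pdk1 did not (r = −0.0885 to 0.108 with the subunits). Pdk3 ran the other way from the subunits (r = −0.758 to −0.621). Pdp1 gave r of 0.300 to 0.501 with them and Pdp2 −0.584 to −0.341. The library series differed as well. The age series minus the mouse-number series, on the log2 scale, was −0.85 for Pdha1, −0.38 for Pdhb, −0.34 for Dlat, −0.33 for Pdhx and −1.15 for Pdk4, while Pdk1, Pdk2, Pdk3, Pdp1 and Pdp2 moved by −0.13 to 0.16. These are values side by side with no test, since the series was taken from names alone. For none of the 10 did the genotype difference itself differ between series beyond the error (edgeR interaction term, adjusted p = 1.00 for each), though the error was wide for Pdk4 (−0.67 ± 1.30).

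Genes whose log2 CPM followed a member most closely over the 11 libraries were named by Pearson's r alone, among all genes tested. Pdk4 was followed by Ucp3 (r = 0.976), a mitochondrial carrier of skeletal muscle and brown fat, then Nfe2l1 (0.955), Sec31b (0.948), Rbm38 (0.938) and Mypn (0.937), a sarcomere protein. Pdha1 was followed by Cox5a (0.996), Ndufv2 (0.994) and Tmem65 (0.993), and Pdhb by Atp5b (0.994), Ndufb9 (0.993) and Atp5o (0.993), of which Cox5a, Ndufv2, Ndufb9, Atp5b and Atp5o are parts of the respiratory chain or ATP synthase. Dlat was followed by Apobec2 (0.980), Zfp46 (0.978) and Synpo2l (0.978), and Pdhx by Mrpl44 (0.989), Psmd6 (0.984) and Hibadh (0.981). Pdk2 was followed by Ubald2 (0.964), Pck1 (0.947) and Kank3 (0.946), Pck1 being an enzyme of gluconeogenesis and glyceroneogenesis. The closest genes to Pdk1 were Neu3, Prdm1 and Mtmr2 (0.857 to 0.886), to Pdk3 Sumo2, Tmem147os and Gm6410 (0.910 to 0.954), to Pdp1 Mat2a, Cmc2 and Zfp366 (0.862 to 0.891), and to Pdp2 Qrich1, Pla2r1 and Rapgef4 (0.909 to 0.948). None of these had an adjusted p under 0.1 between genotypes.

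Skeletal muscle and fat can stay attached to an enucleated eye, and their markers moved with Pdk4 and with the subunits across libraries. The 9 adipocyte markers (Adipoq, Plin1, Cidec, Fabp4, Lep, Retn, Cfd, Lipe and Lpl) summed to 61.6 to 654 CPM in WT and to 57.7 to 401 CPM in KO. Of these, 8 were tested and all 8 were lower in KO, their log2 fold changes having a median of −1.75, and 3 of them (Retn, Cfd and Lipe) had an unadjusted edgeR p under 0.05, beside 2.09% of all genes. The adipocyte median was −1.09 with 1 of 8 under that p without WT replicate 1, and −3.33 with 8 of 8 without KO replicate 1, and the quasi-likelihood test put 1 of 8 under it. Lep was at 0 in 3 libraries. The 11 muscle markers, which include Acta1, Ckm and the extraocular myosin Myh13, summed to 1421 to 11552 CPM in WT and to 1137 to 11553 CPM in KO, and all 11 were lower in KO with a median of −0.54 and none under that p. The muscle median was −0.23 without WT replicate 1 (10 of 11 lower) and −1.09 without KO replicate 1, where 4 of 11 were under that p. Over all genes tested the median was 0.00. KO replicate 1 stood with WT replicates 1 and 2, with 401 CPM of adipocyte markers and 11553 CPM of muscle markers. Other markers were lower in KO too, with all 5 blood markers at a median of −0.63 (−0.041 without WT replicate 2, and higher in KO within the age series, at a median of 0.33). All 6 lens markers tested were lower at a median of −2.19, which became 7.24, with all 6 higher in KO, without WT replicate 4. Fewer cells of a type and less RNA per cell cannot be told apart in these bulk samples.

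Over the 11 libraries, log2 CPM of Pdk4 went with the summed adipocyte markers (r = 0.903, permutation p = 0.00029, adjusted 0.00256; Spearman's coefficient 0.809, permutation p = 0.00378, adjusted 0.0170) and with the summed muscle markers (r = 0.882, permutation p = 0.00057, adjusted 0.00256; Spearman's coefficient 0.845, permutation p = 0.00176, adjusted 0.0158), among 9 marker lists examined. These permutations took no account of genotype or library series, which both went with Pdk4. Without the 2 libraries farthest from the median of the marker sum, r was 0.860 and 0.826, and within the age series alone (6 libraries) 0.900 and 0.927. Within the KO libraries alone r was 0.863 and 0.918. The other 7 lists, rod, cone, retinal pigment epithelium, Muller glia, lens, cornea with conjunctiva, and blood, gave r of −0.643 to 0.510, with adjusted permutation p of 0.0986 or more. The mouse-number series holds 5 libraries, too few for a value of its own. The part of fat and muscle in the genotype difference of Pdk4 was not tested.

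The subunits went with the markers of fat and of muscle alike, and the opposite way to those of rods. With the adipocyte markers r was 0.933 for Pdha1, 0.932 for Pdhb, 0.902 for Dlat and 0.775 for Pdhx, and within the age series 0.896, 0.821, 0.666 and 0.786. With the muscle markers r was 0.949, 0.882, 0.888 and 0.829 in the same order, and within the age series 0.943, 0.723, 0.645 and 0.848. Against the rod markers, which summed to 25104 to 39878 CPM, r was −0.860 for Pdha1, −0.885 for Pdhb, −0.837 for Dlat and −0.683 for Pdhx, and within the age series −0.673, −0.866, −0.750 and −0.576. The 12 values over all libraries had adjusted permutation p of 0.00120 to 0.0415 over the 30 relations examined. Here too the permutations took no account of genotype or library series. Spearman's coefficient was 0.745 to 0.909 for fat, 0.827 to 0.936 for muscle and −0.827 to −0.618 for rods, with adjusted permutation p of 0.00270 to 0.0252 apart from Pdhx and rods (0.0838). Without the 2 libraries farthest from the median of the markers, r was 0.684 to 0.870 for fat, 0.761 to 0.941 for muscle and −0.842 to −0.745 for rods. Pdk2 followed the adipocyte markers (r = 0.898, adjusted permutation p = 0.00240; Spearman's coefficient 0.755, adjusted permutation p = 0.0226; r = 0.804 without the 2 farthest libraries and 0.989 within the age series). Its r with the muscle markers was 0.778 (adjusted permutation p = 0.0162; Spearman's coefficient 0.718, adjusted permutation p = 0.0325; r = 0.754 without the 2 farthest libraries and 0.900 within the age series). Pdk1, Pdk3, Pdp1 and Pdp2 gave r of −0.595 to 0.622 with the 3 lists, with adjusted permutation p of 0.0602 or more.

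**Figure D4:**
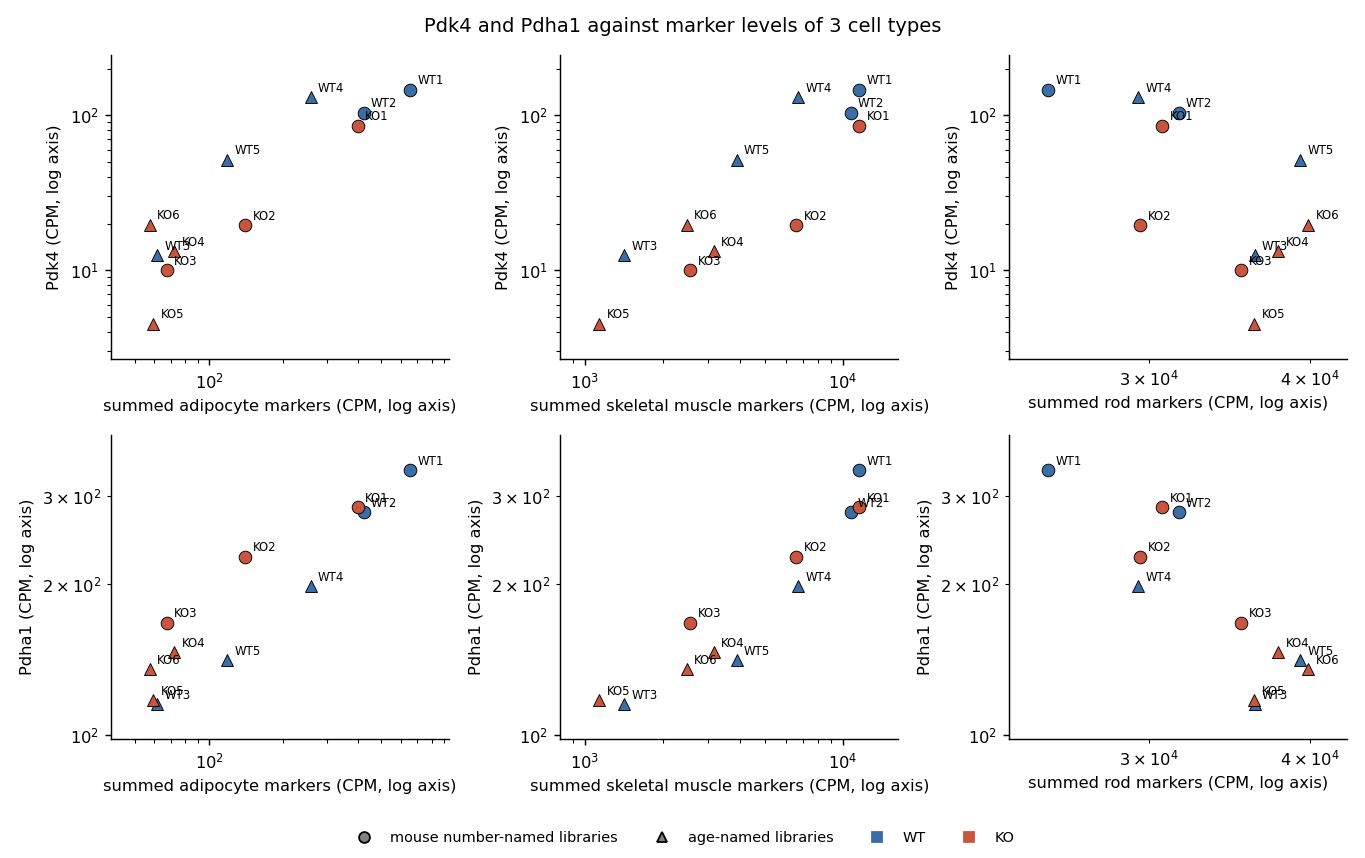
Pdk4 (top) and Pdha1 (bottom) in CPM against the summed CPM of adipocyte, skeletal muscle and rod markers, all axes logarithmic, with 1 point for each of the 11 libraries; colours are genotypes and symbols library series. WT replicates 1 and 2 and KO replicate 1 sit together at the high ends of the fat and muscle axes, and WT replicate 3 sits among the KO libraries.

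The X-linked members were also read beside Xist, the RNA that coats the silenced X chromosome of females. Xist was at 1244, 794 and 1632 CPM in WT replicates 1, 3 and 5, and at 0.450 to 1.29 CPM in the other 8 libraries. That is as many libraries with high Xist as the 3 WT females of the study, which gives no sex by library. In WT replicates 1, 3 and 5 Pdk3 was at 19.8, 19.3 and 21.7 CPM, Pdha1 at 338, 115 and 141 CPM and Pdk4 at 146, 12.5 and 51.6 CPM. In WT replicates 2 and 4 these genes were at 17.99 and 18.8, 278 and 198, and 104 and 131 CPM. Pdk4 was therefore at both ends of its WT range among the WT libraries with high Xist. In WT replicates 2 and 4, with low Xist, it was above all KO libraries, which reached at most 85.5 CPM. The part of sex in the genotype difference of Pdk4 was not tested.

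The genes around the complex were taken in 8 lists written by function, and no gene of these lists passed an adjusted p under 0.1. Of the other parts of the complex, Dld, the E3 subunit, was 120 ± 21.2 CPM in WT and 114 ± 17.1 CPM in KO, and Pdpr, which restrains the phosphatase, 43.7 ± 4.69 and 44.0 ± 6.14 CPM. All 7 genes that make and attach lipoate were below 0 (median −0.08 on the log2 scale), led by Bola3 (−0.15) and Lipt1 (−0.11), beside the 48.9% of all genes below 0. Without WT replicate 1, and likewise without TMM factors, 4 of these 7 were below 0, with medians of −0.0054 and −0.032. Of the 4 genes of thiamine pyrophosphate supply, 1 was below 0, and Slc19a2 was at 0.08.

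Among the genes of pyruvate entry and other fates, 5 of 8 were lower in KO. Gpt2, the mitochondrial alanine aminotransferase, was 25.5 ± 2.19 CPM in WT and 20.7 ± 4.14 CPM in KO, a log2 difference of −0.30 ± 0.15 (unadjusted edgeR p = 0.0460, adjusted p = 1.00, exact permutation p = 0.0519). Pcx, which carboxylates pyruvate to oxaloacetate, was 67.2 ± 24.8 and 49.2 ± 11.4 CPM, a difference of −0.45 ± 0.23 (unadjusted edgeR p = 0.0508, exact permutation p = 0.126). Among the other 2-oxoacid dehydrogenase complexes 7 of 9 genes were lower, led by Bckdha (−0.30) and Bckdhb (−0.23) of branched-chain amino acid breakdown. All 14 genes of the citric acid cycle were lower, by a median of −0.17, among them Sdhb (−0.30), with none at an unadjusted p under 0.05. That median was −0.052 without WT replicate 1 (13 of 14 lower), −0.28 without WT replicate 3 and −0.28 without KO replicate 1 (14 of 14 lower in both), and −0.086 within the age series (12 of 14 lower). Without WT replicate 1, the genes of pyruvate entry and other fates had 3 of 8 lower, and the other 2-oxoacid dehydrogenase complexes 8 of 9 with a median of −0.057, against −0.13 with it.

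Of 10 regulators known to act on Pdk transcription, 5 were lower and none passed an unadjusted p under 0.05, with Pparg at −0.44 ± 0.83 and Hif1a at 0.15 ± 0.16. Among 11 genes of the fasting and fatty acid response, 10 were lower with a median of −0.22, beside 48.9% of all genes lower. Without KO replicate 1 all 11 were lower with a median of −0.36. Without WT replicate 1, 10 of 11 were lower with a median of −0.17, and without TMM factors 9 of 11 with a median of −0.18. Ucp3 was 14.9 ± 10.2 CPM in WT and 6.47 ± 6.66 CPM in KO, a log2 difference of −1.21 ± 0.65 (unadjusted edgeR p = 0.0644, exact permutation p = 0.136). Angptl4, an inhibitor of lipoprotein lipase, was 13.7 ± 7.41 and 7.16 ± 4.48 CPM, a difference of −0.93 ± 0.47 (unadjusted edgeR p = 0.0463, adjusted p = 1.00, exact permutation p = 0.128). The markers of fat and muscle given above were lower beside these genes, and their part in the difference was not tested.

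**Figure D5:**
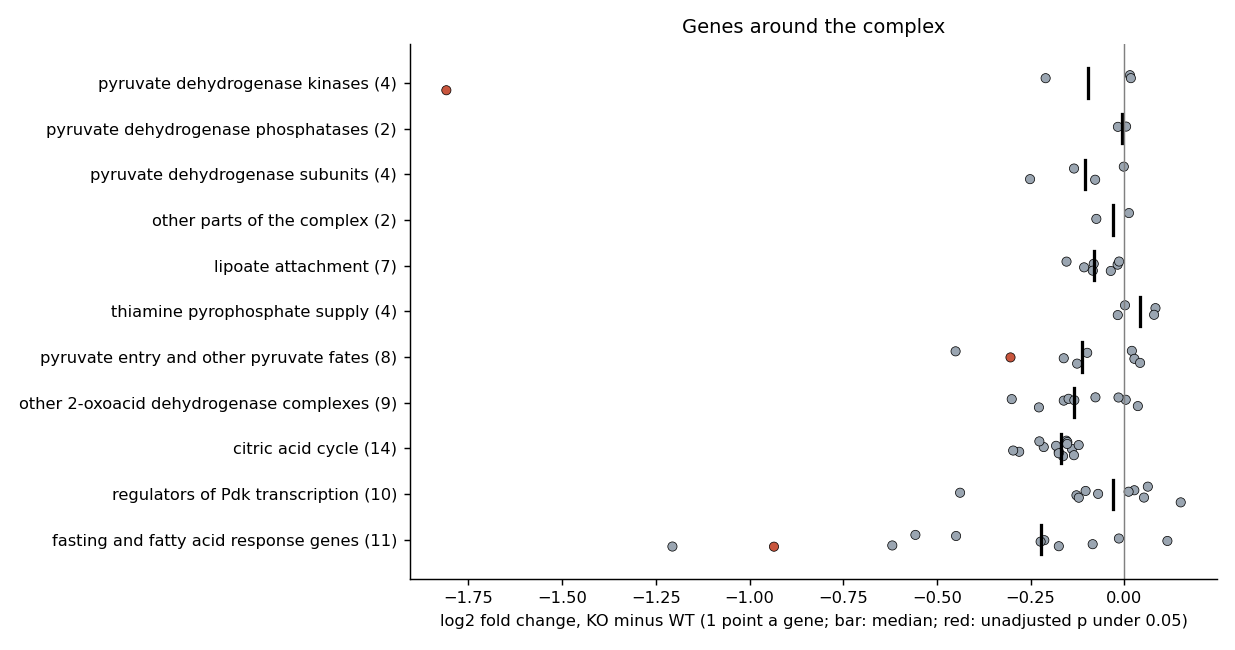
Log2 fold change, KO minus WT, of each tested gene (points) in 11 lists around the complex, with the number of genes in brackets and the list median as a bar; red points have an unadjusted edgeR p under 0.05. Only Pdk4, Gpt2 and Angptl4 are red, and the citric acid cycle points lie between −0.30 and −0.12.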

How the data were processed

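RNA of 11 whole-eye samples was read in pairs, and the authors assigned the reads to Gencode M4 genes (GRCm38) with RSEM 1.2.19. They deposited for each library expected counts, which are unscaled, and FPKM, scaled by length and library. Expected counts were rounded. The 15767 genes that reached 1 CPM in 5 or more of the 11 libraries were tested by edgeR 4.0.16 (R 4.3.3) with TMM factors and the likelihood-ratio test, genotype as the only term, Benjamini-Hochberg adjustment and a threshold of 0.1. A prior count of 2 was used for log2 CPM. SEs came from the fitted information. Single values were compared by two-sided exact permutation of the genotype labels (462 arrangements, smallest p = 0.00216), and correlations by 100000 permutations in SciPy 1.17.1. FPKM values entered levels, shares and ratios only, with no pseudocount. At 1 CPM a library holds 20.0 to 36.5 read pairs. The alternatives were DESeq2 1.42.0, the quasi-likelihood test, other scalings, filters and no rounding, the library series, the replicate number as a block and each library left out. The steps were tested on simulated data, with the same setting of spread for all genes and no library series. A spread as large as that of Pdk4 was not simulated. Library series were found by matching counts of 63 genes to the study's own column names. The study reported 63 genes at an adjusted p under 0.1 and named Pdk4 among those lower in KO. In the main fit here Pdk4 did not pass that threshold.

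The members and lists were chosen with earlier results of these data known, and the relations of all 10 members to markers were examined after the data had been seen. Named genes were the members, the genes of each list with an unadjusted p under 0.05 or the 2 largest changes, the closest genes to each member, Xist, Mir211 and Trpm1; a few are not reported here. Replicate numbers did not pair the samples. The labels do not say that each library is a separate animal, while the study calls the libraries biological replicates.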

Additional observations from a re-analysis of the deposited data

Results flagged for a closer look

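In 26 groups of 5 or 6 values (the log2 CPM of the 10 genes, and 3 FPKM quantities, in each genotype), 3 held a library far from the others, where chance gives about 1 in 20. The Pdk4 share of the summed kinase FPKM was 26.1% in KO replicate 1, against 2.01 to 8.65% in the other 5 KO libraries. The kinase to phosphatase FPKM ratio was 5.73 in the same library, against 4.01 to 4.53 in the others. Both quantities include Pdk4 FPKM and were read on a linear scale. The log2 CPM of Pdk4 in KO libraries was not flagged. Pdp2 was at 4.21 on the log2 CPM scale in KO replicate 6, against 3.81 to 3.93 in the other KO libraries. KO replicate 1 also had 401 CPM of adipocyte markers and 11553 CPM of muscle markers, the highest of the KO libraries in both, and their part in its Pdk4 level was not tested.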

How the results depend on the processing

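Pdk2, Pdk4, Pdha1 and Pdhb kept their direction (lower in KO) in all 22 alternative fits, and none of the 10 genes was called in any of them apart from Pdk4 without KO replicate 1. Leaving out each library gave −2.72 to −1.56 for Pdk4, −0.27 to −0.16 for Pdk2, −0.43 to −0.026 for Pdha1 and −0.21 to −0.021 for Pdhb (both nearest 0 without WT replicate 1), −0.030 to 0.064 for Pdk1, −0.016 to 0.059 for Pdk3, −0.045 to 0.058 for Pdp1, −0.10 to 0.034 for Pdp2, −0.16 to 0.0051 for Dlat and −0.064 to 0.061 for Pdhx. It gave −20.4 to −12.7 percentage points for the Pdk4 share, with an adjusted p under 0.05 only without KO replicate 1 or WT replicate 3, and −0.56 to −0.32 for the log2 kinase to phosphatase ratio, for the same libraries. Genes with differences near 0 changed sign under other settings too: Pdk1 within the age series (−0.020), Pdk3 within the mouse-number series (−0.054), Pdp1 with the series covariate (−0.0031) and within the mouse-number series (−0.14), Pdp2 without TMM (0.033), with the covariate (0.0052) and within the mouse-number series (0.15), and Pdhx with upper-quartile scaling (0.0097), without TMM (0.046) and with the filter of 1 count in any library (0.0033). Scaling without TMM moved the median of all genes to 0.05. The number of all genes called was 1, and 0 with the quasi-likelihood test (446 at an unadjusted p under 0.05), 2 with DESeq2, 2 with the filter of 1 count, 10 with the series covariate, 7 and 38 within the mouse-number and age series, and 1 to 11 with each library left out (0 or 1 of the 10 members). The cause of these changes was not tested.

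Same-numbered WT and KO libraries did not deviate together (5 pairs, r = −0.33 to 0.63, mean 0.22), and not every library went best with its own number. With the replicate block, which leaves out KO replicate 6, 10 genes were called, none of the 10 members, Pdk4 was −2.08 (edgeR adjusted p = 0.129), Pdk3 −0.00060 and Pdhx 0.022. Over the same 5 pairs the Pdk4 share was −15.4 percentage points (exact permutation p = 0.0625, the smallest it can give).

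Depth limits Pdk4 most, whose lowest expected count was 115, while no other member was below 303.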
